A study of Mus musculus with 6 samples.

Results

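The cells described here are fibroblast-type cells of the mouse knee synovium that carried transcripts of Chad, Cytl1, Angptl7 or Cilp2, and they go by the working name of tendon-like cells. A cell was of fibroblast type when it held at least 5 unique molecular identifiers (UMIs, each 1 captured transcript) of Col1a2 and Dcn together, 0 of Ptprc, 0 of Pecam1, at most 1 of Tyrobp, and at most 10% mitochondrial UMIs. Such a cell became a member when its UMIs of the 4 rule genes summed to at least 4. This gave 613 members among 11148 fibroblast-type cells (5.50%), out of 18491 barcodes in all, and the remaining 10535 fibroblast-type cells are called the other cells. Chad, Cytl1, Angptl7 and Cilp2 chose the members, so their levels are a description.

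Knee synovium of 10 mice was pooled for each of 6 droplet libraries, live cells were sorted with no gate for cell type, and transcripts were counted at their 3′ ends. The libraries were healthy Notch3-/- (263 members), healthy wild type (109), arthritic Notch3-/- (70), arthritic wild type (37), arthritic mice given a monoclonal antibody to Notch3 (23) and arthritic mice given an isotype control antibody (111). Arthritis came from transfer of K/BxN serum, which carries the joint-attacking antibodies of an arthritic strain, so the recipients have antibody-driven joint inflammation. The labels name no genotype for the antibody-treated mice, and give neither ages and doses nor the part of Notch3 that was deleted. They tie the knockout to no cell type. Every group is 1 library of pooled animals, so no difference between groups has a replicate or a test, and every interval below is at 95% and covers counting error only.

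Tendon and ligament cells lay down parallel type I collagen fibrils, and the transcription factors Scleraxis and Mohawk keep this programme on. Small leucine-rich proteoglycans such as fibromodulin, keratocan and decorin bind the fibrils and set their thickness, and thrombospondin 4 and COMP help to assemble them. Where tendon or ligament meets bone the tissue grades into fibrocartilage, whose cells also make aggrecan and type II collagen. In the knee these tissues lie against the synovium, and a synovial digest can include their cells. Of the rule genes, Angptl7 encodes a secreted angiopoietin-like protein, Chad the cartilage matrix protein chondroadherin, Cilp2 a relative of the cartilage intermediate layer protein, and Cytl1 a small secreted protein of cartilage.

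No single rule gene was shared by all members, so the promoters of 3 rule genes, each the leading gene of a set of cells described below, are shown as reference sequence. Each line is the 250 bases before the gene's start in the RefSeq table of build GRCm38.p6 (mm10), 5′ to 3′ on the gene's own strand. Angptl7 is at chr4:148500463-148500712 on the minus strand, Chad at chr11:94564797-94565046 on the plus strand and Cytl1 at chr5:37735269-37735518 on the plus strand. Capitals mark the E-box letters CANNTG, the motif class bound by Scleraxis and other basic helix-loop-helix factors. The motif reads alike on both strands.
Angptl7: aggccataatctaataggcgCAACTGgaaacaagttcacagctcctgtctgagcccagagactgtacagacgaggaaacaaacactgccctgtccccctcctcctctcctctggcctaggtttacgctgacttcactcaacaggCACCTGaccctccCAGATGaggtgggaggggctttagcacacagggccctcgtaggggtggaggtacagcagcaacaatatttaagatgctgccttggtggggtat
Chad: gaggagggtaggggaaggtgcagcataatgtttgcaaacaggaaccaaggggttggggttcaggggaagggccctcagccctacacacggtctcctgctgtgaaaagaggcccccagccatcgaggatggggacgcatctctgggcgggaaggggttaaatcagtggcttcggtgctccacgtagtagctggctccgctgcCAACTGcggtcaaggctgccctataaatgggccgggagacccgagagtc
Cytl1: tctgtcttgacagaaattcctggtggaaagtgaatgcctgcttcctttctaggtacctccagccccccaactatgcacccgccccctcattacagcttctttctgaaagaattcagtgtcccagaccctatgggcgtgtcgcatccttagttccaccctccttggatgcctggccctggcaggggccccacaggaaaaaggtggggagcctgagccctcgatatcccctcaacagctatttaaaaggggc
The Angptl7 window held 3 matches to CANNTG, the Chad window 1 and the Cytl1 window 0. The same motif occurred in 66.2% of all 32851 promoter windows of this length, so a match in a single promoter is common. The SOX-type letters ACAATG or ACAAAG on either strand, found in 25.2% of all windows, were absent from the 3 windows, with no overlap between the motifs. A match of letters is a description of the sequence and does not show that a factor binds there.

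Angptl7 was the most widespread rule gene, with a UMI in 556 of 613 members (90.7%). Cilp2 was found in 419 members, Chad in 268 (43.7%) and Cytl1 in 53 (8.65%). Angptl7 reached 95.8% of healthy Notch3-/- members and 97.2% of healthy wild-type members, 87.1% of arthritic Notch3-/- and 86.5% of arthritic wild-type members, and 95.7% of anti-Notch3 and 74.8% of isotype members. It was thus common in every library, and least so in the isotype library. Chad was patchy, at 57.8% of healthy Notch3-/- and 34.9% of healthy wild-type members, 48.6% of arthritic Notch3-/- and 32.4% of arthritic wild-type members, and 39.1% of anti-Notch3 and 20.7% of isotype members. Cytl1 was rarer still and came in bursts. In the anti-Notch3 library 1 cell held all 433 Cytl1 UMIs, and in the healthy wild-type library 1 of 2 Cytl1 cells held 263 of 277. All 4 rule genes were detected together in 23 cells, and 194 members held only 1 of them. Angptl7 and Cilp2 were found together in 377 cells, Chad and Cilp2 in 243, Chad and Angptl7 in 239, and Cytl1 and Angptl7 in 33.

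**Figure D1:**
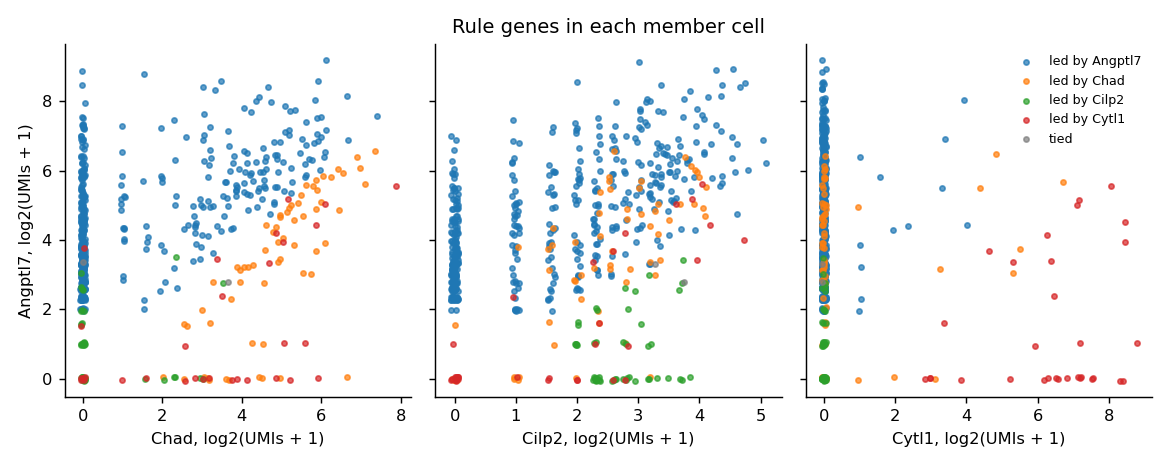
Each point is 1 of the 613 member cells, with log2(UMIs + 1) of Angptl7 on the vertical axis and of Chad, Cilp2 or Cytl1 on the horizontal axis, coloured by the rule gene that supplied most of the cell's rule UMIs; points are shifted slightly at random so that equal values can be seen. Angptl7 was found with Cilp2 in 377 cells and with Chad in 239, and the 31 Cytl1-led cells lie on the right of the third panel.

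The threshold cut a continuous range. The 51 cells just inside it, with 4 rule UMIs, had Fmod at 1254 CPM (counts per 1000000 UMIs of the cells summed), Thbs4 at 576 CPM and Prg4 at 1915 CPM. The 81 cells just outside it, with 3 rule UMIs, had Fmod at 903 CPM, Thbs4 at 538 CPM and Prg4 at 5523 CPM. Cells with 0 rule UMIs had Fmod at 56.1 CPM, Thbs4 at 80.8 CPM and Prg4 at 16330 CPM. In Fmod and Thbs4 the cells just outside were therefore nearer to the cells just inside than to cells with none. At least 10 rule UMIs were present in 441 members.

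Fmod (fibromodulin) and Thbs4 (thrombospondin 4), which name the cells but were not in the rule, were higher in members than in other cells of the same library in all 6 libraries. Fmod was at 3287 CPM in members and 26.7 CPM in other cells of the healthy Notch3-/- library, and at 1552 CPM in members and 2.92 CPM in other cells of healthy wild type. In the arthritic genotype libraries it was at 779 CPM in members and 5.35 CPM in other cells of Notch3-/- mice, and at 713 and 25.1 CPM in wild-type mice. It was at 1931 CPM in members and 13.8 CPM in other cells under anti-Notch3, and at 3515 and 369 CPM under isotype. The lowest of the 6 member levels thus lay above the highest level of other cells, which was that of the isotype library. Thbs4 was at 1410 and 73.5 CPM in members and other cells of the healthy Notch3-/- library and at 462 and 28.0 CPM in those of healthy wild type. It was at 388 and 35.5 CPM in the arthritic Notch3-/- library, 895 and 139 CPM in the arthritic wild-type library, 1409 and 41.2 CPM under anti-Notch3 and 1311 and 226 CPM under isotype. Here too the member and other ranges did not overlap.

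The list of tendon regulators and membrane genes as a whole did not stand higher in members. Of 8 with enough UMIs 1 was higher in all 6 libraries (Scx) and 1 lower (Cd34), with a median log2 ratio of -0.47, and the 12 genes of the list summed to 2671 to 4057 CPM in members and 3655 to 6233 CPM in other cells. Scx (Scleraxis) was at 100 CPM in members and 4.93 CPM in other cells of the healthy Notch3-/- library, 28.8 and 9.53 CPM in healthy wild type, 53.1 and 2.74 CPM in arthritic Notch3-/-, 50.9 and 15.4 CPM in arthritic wild type, 74.5 and 3.61 CPM under anti-Notch3 and 115 and 41.7 CPM under isotype. Mkx (Mohawk) had log2 ratios of members over other cells between 1.78 and 6.85, and Tnmd (tenomodulin, a membrane protein of mature tendon) between 0.27 and 2.23. Tnmd therefore set the members apart less than Fmod did. The label of tendon-like cells thus held for Fmod, Thbs4 and Scx. It did not hold for the list of regulators and membrane genes as a whole, or for the Cytl1-led cells described below. That list includes Cd34, which is counted among the sublining genes below as well.

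Over all genes, 54 of the 9718 genes with at least 20 UMIs in the fibroblast-type cells of each library were at least 2-fold higher in members than in other cells in all 6 libraries (0.556%), and 84 were at least 2-fold lower (0.864%). Since the members were chosen by their transcripts, these counts describe them and carry no test. Of 20 tendon and ligament matrix genes, 9 were at least 2-fold higher in all 6 libraries and 0 lower, with a median log2 ratio of 1.61 against -0.004 for all genes tested. Besides Fmod and Thbs4 they were Comp, Cilp (cartilage intermediate layer protein), Prelp, Kera (keratocan), Fibin, Col11a1 and Col12a1, whose lowest log2 ratios in any library lay between 1.40 for Col12a1 and 3.08 for Cilp. Among 12 small leucine-rich proteoglycans 4 were higher in all 6 libraries, namely Fmod, Prelp, Kera and Omd (osteomodulin), with a median of 1.27. Dcn (decorin), used to call the fibroblast type, was higher by 0.65 to 1.49. The main fibrillar collagens did not separate the groups. Col1a1 had log2 ratios of members over other cells from -0.25 to 0.83 and Col3a1 from -0.97 to 0.09.

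Among genes ranked by their lowest ratio over the 6 libraries, the rule genes and Fmod were followed by Clu, Cilp, Fibin, Thbs4, Slc38a1, Tnfrsf11b, Ptgis and Prelp. Clu (clusterin, a secreted chaperone) was at 4903 CPM in members and 143 CPM in other cells of the healthy Notch3-/- library and at 4503 and 162 CPM in healthy wild type. It was at 9908 and 139 CPM in arthritic Notch3-/-, 2350 and 70.0 CPM in arthritic wild type, 5062 and 40.3 CPM under anti-Notch3 and 1348 and 145 CPM under isotype. Tnfrsf11b (osteoprotegerin, the decoy receptor of the osteoclast-inducing ligand RANKL) was at 43.8 to 201 CPM in members over the 6 libraries and 1.11 to 8.06 CPM in other cells. The highest of these levels, under anti-Notch3, came from 27 UMIs in 4 cells, 85.2% of them in 1 cell. Members of BMP signalling were higher too: Bmp2 by 1.08 to 1.81 and Bmp4 by 1.42 to 2.68 on the log2 scale, the 2 genes of 20 TGF-beta and BMP genes that were 2-fold higher in all libraries. Wif1 (an inhibitor of Wnt ligands) was higher by 3.13 to 7.82, and Ank, a membrane protein for pyrophosphate and ATP release that limits mineral deposition, by 1.70 to 3.22. Wif1 rested in part on small sets of members described below. It was at 0 CPM under anti-Notch3 and 6.12 CPM under isotype in Angptl7-led cells, and at 28.6 to 65.2 CPM in those of the other libraries. In Chad-led cells of healthy Notch3-/- it was at 323 CPM, and in 6 Cytl1-led cells of arthritic wild type at 1326 CPM. Igfbp6, which binds insulin-like growth factors, was higher by 1.05 to 2.14.

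Some genes of synovial fibroblasts were lower in members, though few of them in all 6 libraries. Prg4, the gene of the lining lubricant lubricin, was at 2182 CPM in members and 24390 CPM in other cells of the healthy Notch3-/- library, 4722 and 10970 CPM in healthy wild type, 6727 and 10980 CPM in arthritic Notch3-/-, 6440 and 11540 CPM in arthritic wild type, 1088 and 22990 CPM under anti-Notch3 and 2671 and 13700 CPM under isotype. The difference was under 2-fold in the arthritic Notch3-/- and arthritic wild-type libraries. Of 13 lining genes 0 were higher and 3 lower in all libraries, with a median of -1.52. The lining gene Clic5 was at 0 to 55.9 CPM in members over the 6 libraries and 72.2 to 386 CPM in other cells. Of 14 sublining genes 0 were higher and 2 lower, Cd34 (-3.26 to -1.05) and the chemokine Cxcl12 (-2.25 to -1.08). The lowest-ranked genes were Dpep1, at 0 to 16.8 CPM in members and 18.3 to 180 CPM in other cells, the chemerin receptor gene Gpr1, Stmn4 and the stromal marker Cd248. The inflammatory list had 1 member higher, Tnfrsf11b, and 3 lower of 18, with a median of -1.56. Notch3 itself was read in members as 1 UMI in the isotype library and 0 UMIs in the other 5.

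**Figure D2:**
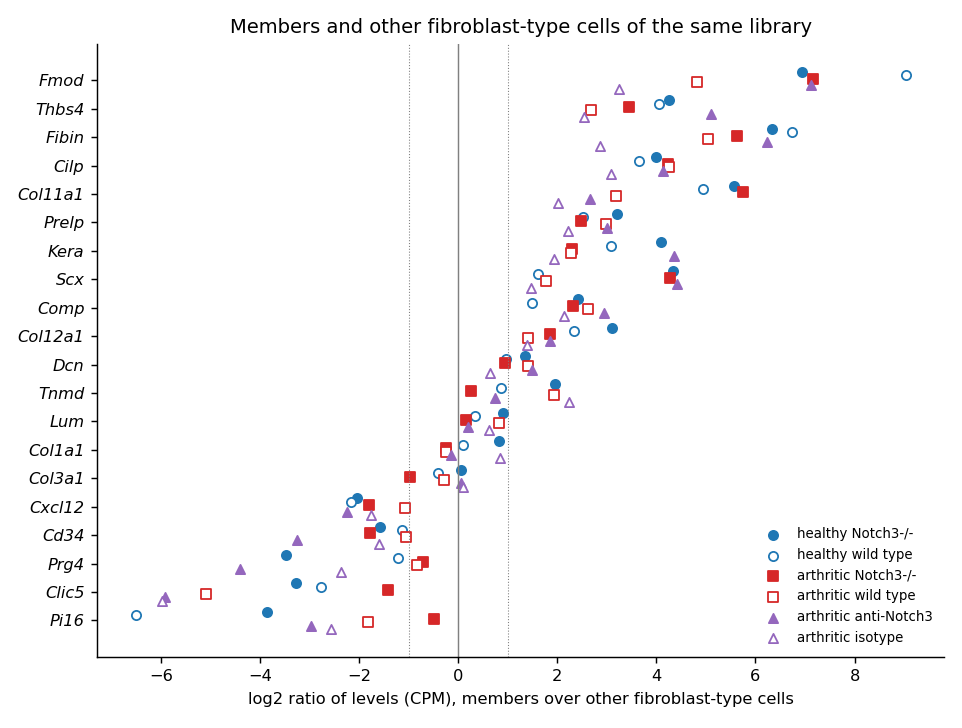
Each row is a gene and each point a library, placed at the log2 ratio of its CPM level in members over other fibroblast-type cells; filled symbols are libraries with Notch3 targeted, open symbols their controls, and dotted lines mark 2-fold. Tendon matrix genes from Fmod to Col12a1 lie right of 0 in all 6 libraries, and Cxcl12, Cd34, Prg4, Clic5 and Pi16 lie left of 0.

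Markers of endothelial, myeloid and muscle cells were scarce in members. Summed over 8 endothelial markers the level was 4.11 to 16.8 CPM in members over the 6 libraries and 16.4 to 59.5 CPM in other cells, and Pecam1 was 0 by the rule. Summed over 12 myeloid markers it was 20.6 to 163 CPM in members and 47.1 to 181 CPM in other cells. The 9 skeletal muscle markers summed to 0 to 14.9 CPM in members. The 8 mural markers were not lower throughout: they summed to 192 CPM in members and 130 CPM in other cells of healthy Notch3-/-, 119 and 57.2 CPM in healthy wild type and 92.2 and 65.6 CPM in arthritic Notch3-/-. They summed to 59.4 and 209 CPM in arthritic wild type, 104 and 102 CPM under anti-Notch3 and 130 and 166 CPM under isotype. Of these markers Rgs5 was at 3.58 CPM in members and 48.1 CPM in other cells of healthy Notch3-/-, and Acta2 at 140 and 13.7 CPM. The part of mural transcripts in the results was not tested. Free transcripts of the rule genes were looked for in cells that should lack them. Of cells with a Ptprc UMI, 0% to 0.997% had 4 or more rule UMIs, and 1.23% to 5.25% had an Angptl7 UMI at median depths of 3339 to 6924 UMIs. The share of members with an Angptl7 UMI was set in part by the rule and is not compared with these. Cells with a Pecam1 UMI differed. In the 6 libraries 1.34% to 10.2% of them reached 4 rule UMIs, nearly all through Cytl1, which supplied most rule UMIs in 18 of 19 such cells of the healthy Notch3-/- library and in 12 of 12 of healthy wild type. Cytl1 is therefore also read outside fibroblast-type cells here.

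The members were next split by the rule gene with the most UMIs in the cell, a split chosen after seeing their values, so the following levels are a description. Angptl7 led in 465 cells, Chad in 63, Cilp2 in 52 and Cytl1 in 31, and 2 cells were tied. The mix differed between libraries. Chad-led cells numbered 44 in healthy Notch3-/- and 1 in healthy wild type, 11 in arthritic Notch3-/- and 1 in arthritic wild type, and 2 under anti-Notch3 and 4 under isotype. Cilp2-led cells numbered 29 in the isotype library, 17 in healthy Notch3-/- and 0 to 4 in each of the others. Cytl1-led cells numbered 10, 1, 8, 6, 1 and 5 in healthy Notch3-/-, healthy wild type, arthritic Notch3-/-, arthritic wild type, anti-Notch3 and isotype.

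The Angptl7-led cells carried the tendon genes. Fmod was at 2291 CPM (interval 2239 to 2345), Thbs4 at 977 (943 to 1012), Tnmd at 285, Kera at 289 and Col1a1 at 7522 CPM, while Col2a1, the type II collagen of cartilage, was at 0.630 CPM (0.0763 to 2.27). Fmod in these cells was at 3276 CPM in healthy Notch3-/- and 1391 CPM in healthy wild type, 971 and 615 CPM in arthritic Notch3-/- and arthritic wild type, and 2070 and 3026 CPM under anti-Notch3 and isotype. The Fmod reading of the members thus did not rest on the smaller sets. In arthritic wild type other tendon genes did in part. Thbs4 there was at 459 CPM in Angptl7-led cells and 895 CPM in all members, and Kera at 116 and 174 CPM.

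The Cytl1-led cells went against the tendon label in part. Their Scx (18.0 CPM, interval 3.71 to 52.6), Tnmd (18.0 CPM) and Kera (2 UMIs) rested on 3, 1 and 1 cells, and Col1a1 was at 1295 CPM. Other genes of the tendon matrix list were not low: Comp was at 5803 CPM in Cytl1-led and 5167 CPM in Angptl7-led cells, Cilp at 4346 and 1424 CPM, Fibin at 899 and 896 CPM and Col11a1 at 252 and 94.4 CPM, while Fmod was at 1217 and 2291 CPM and Thbs4 at 210 and 977 CPM. Genes of cartilage were instead well represented. Col2a1 was at 642 CPM (526 to 775), Acan (aggrecan) at 588 (477 to 716), Hapln1, which links aggrecan to hyaluronan, at 414 (322 to 524), Ucma at 180 (121 to 257) and Sox9, the master regulator of cartilage cells, at 791 CPM (662 to 938). Sox9 was read in 25 of the 31 cells, Acan in 21 and Col2a1 in 12. In the 4 libraries with at least 5 such cells, Sox9 was at 521 CPM in healthy Notch3-/-, 337 in arthritic Notch3-/-, 1989 in arthritic wild type and 1372 in isotype. Col2a1 was at 174, 89.8, 1231 and 2485 CPM in the same libraries, so that the 5 isotype cells supplied 62.6% of its UMIs. Ibsp (bone sialoprotein) was at 1193 CPM in 14 of the cells. Prg4 was at 15880 CPM and Mgp (matrix Gla protein, an inhibitor of mineral deposition) at 13590 CPM, against 3081 and 2444 CPM in Angptl7-led cells. The endothelial genes Cdh5 and Kdr were at 0 UMIs. These cells are called Cytl1-led here and not tendon-like.

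Chad-led cells held some tendon genes at the level of Angptl7-led cells or above it, others below it, and genes of mineralising tissue. Fmod was at 3268 CPM (3065 to 3482), Thbs4 at 1343 and Comp at 7047 CPM. Tnmd was at 102 CPM in Chad-led and 285 CPM in Angptl7-led cells, Col14a1, a fibril-associated collagen, at 68.0 and 408 CPM, and Aspn (asporin) at 524 and 966 CPM. Ibsp was at 1418 CPM (1285 to 1561) against 19.8 CPM (15.2 to 25.4) in Angptl7-led cells, but was read in 15 of the 63 cells. Spp1 (osteopontin) was at 6231 CPM (5948 to 6523) against 1455, Alpl (tissue non-specific alkaline phosphatase) at 119 CPM in 5 cells against 1.57, and Bglap (osteocalcin) at 109 CPM in 4 cells against 2.52. The bone-cell gene Dmp1 and the hypertrophic cartilage gene Col10a1 were at 0 UMIs. The 2 libraries with at least 5 Chad-led cells differed: Ibsp was at 5359 CPM in 11 arthritic Notch3-/- cells and 427 CPM in 44 healthy Notch3-/- cells, Spp1 at 18970 and 2736 CPM, Mgp at 20550 and 894 CPM, and Fmod at 302 and 3937 CPM. Cilp2-led cells, 29 of 52 from the isotype library, held Col1a1 at 17790 CPM, Tnmd at 634, Tnc (tenascin C) at 588, Postn (periostin) at 700, Tnn (tenascin N) at 293 and Acan at 291 CPM, against 82.8, 177, 40.0 and 39.7 CPM in Angptl7-led cells for the last 4. This contrast moves with the library. Within isotype, Cilp2-led and Angptl7-led cells had Tnc at 848 and 285 CPM, Postn at 1075 and 684, Tnn at 429 and 159 and Acan at 415 and 153 CPM. Within healthy Notch3-/- Postn was at 10.3 and 53.7 CPM and Tnn at 0 and 8.63 CPM, lower in Cilp2-led cells. Their median rule sum was 6 UMIs against 27 in Angptl7-led cells, so they lay near the threshold.

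**Figure D3:**
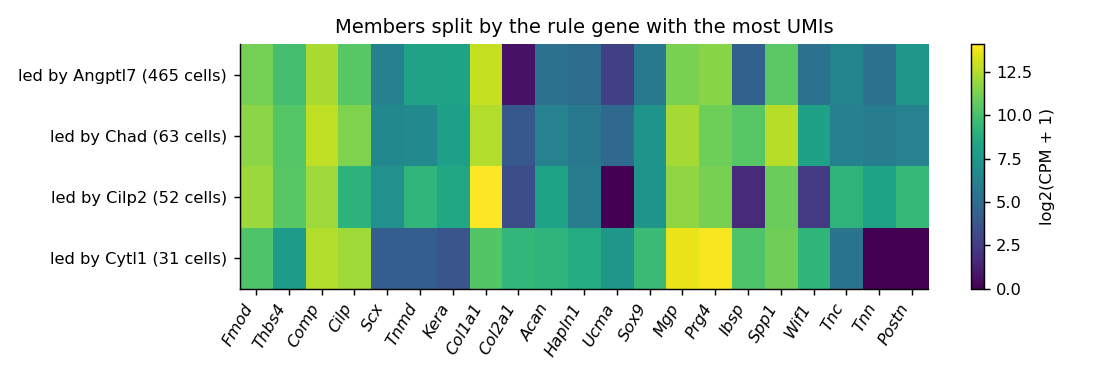
Rows are members grouped by the rule gene with the most UMIs in the cell, columns are genes, and colour is log2(CPM + 1) over the summed cells of all 6 libraries. The Cytl1-led row is bright at Col2a1, Acan, Hapln1, Ucma, Sox9, Mgp and Prg4 and dark at Scx, Tnmd and Kera, and the Chad-led row is bright at Ibsp and Spp1.

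Members were a smaller share of fibroblast-type cells in arthritic than in healthy libraries, but the intervals of isotype and arthritic Notch3-/- overlapped that of healthy wild type. The share was smallest under anti-Notch3, though its interval overlapped that of arthritic wild type. The shares were 7.34% (interval 6.51 to 8.24) in healthy Notch3-/- and 6.26% (5.17 to 7.50) in healthy wild type, 4.12% (3.23 to 5.18) in arthritic Notch3-/- and 3.59% (2.54 to 4.92) in arthritic wild type, and 2.19% (1.40 to 3.27) under anti-Notch3 and 5.42% (4.48 to 6.49) under isotype. The ratio of shares was 1.17 (0.945 to 1.45) for knockout over wild type in healthy mice and 1.15 (0.777 to 1.70) in arthritic mice. It was 0.405 (0.260 to 0.631) for anti-Notch3 over isotype, and for arthritic over healthy 0.574 (0.398 to 0.826) in wild-type and 0.562 (0.435 to 0.727) in knockout mice. Depth differed between the libraries too, with median UMIs of other cells from 4514 to 8311. With each cell thinned to 3000 UMIs, leaving out 965 shallower fibroblast-type cells, the shares were 6.54% (5.71 to 7.44) in healthy Notch3-/- and 4.69% (3.73 to 5.82) in healthy wild type. They were 3.56% (2.69 to 4.62) in arthritic Notch3-/- and 2.23% (1.37 to 3.42) in arthritic wild type. Under anti-Notch3 and isotype they were 2.10% (1.29 to 3.23) and 3.20% (2.46 to 4.09). The antibody ratio was then 0.656, and the thinned intervals of anti-Notch3 overlapped those of isotype and of arthritic wild type. The thinned intervals of isotype and arthritic Notch3-/- again overlapped that of healthy wild type. Angptl7-led cells alone were 5.36% in healthy Notch3-/- and 5.92% in healthy wild type, 2.89% and 2.82% in arthritic Notch3-/- and arthritic wild type, and 1.91% and 3.52% under anti-Notch3 and isotype. How much tendon entered each digest is not given, and its part in the shares was not tested.

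**Figure D4:**
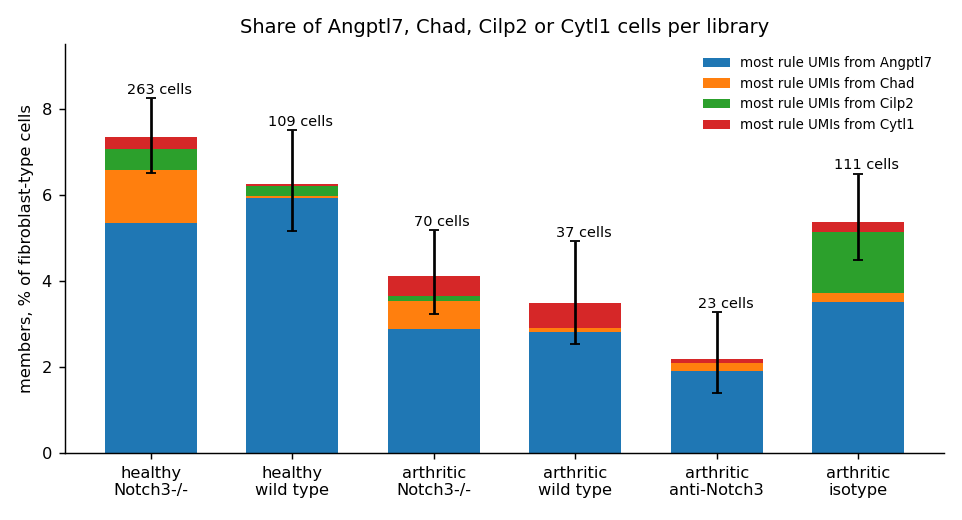
Bars give members as a percentage of fibroblast-type cells in each library, stacked by the rule gene that leads the cell (2 tied cells are not drawn), with the exact 95% binomial interval of the total and the number of members above. Chad-led cells widen the bars of both Notch3-/- libraries, and Cilp2-led cells that of the isotype library.

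Levels within members were then compared inside each pair of libraries, to ask what loss or blockade of Notch3, and arthritis, went with in these cells. A gene with at least 20 UMIs in the pair counts as higher or lower when at least 2-fold apart. Over all cells within the mitochondrial limit Notch3, at chr17:32120820-32166852 on the minus strand, was at 0.288 CPM (0.116 to 0.594) in healthy Notch3-/- and 4.96 CPM (4.09 to 5.95) in healthy wild type, 0.253 and 5.55 CPM in arthritic Notch3-/- and arthritic wild type, and 2.17 and 3.30 CPM under anti-Notch3 and isotype. The library tags in the deposited barcodes are consecutive within both arthritic pairs but far apart in the healthy pair. With 1 library per group, library batch and condition cannot be told apart in any pair, the arthritic over healthy pairs included.

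In healthy joints, Fmod, Thbs4, Scx, Tnmd and Kera were higher in Notch3-/- than in wild-type members, while most of the tendon matrix list was within 2-fold. Fmod was higher by 1.08 on the log2 scale (interval 0.998 to 1.17) and Thbs4 by 1.61 (1.46 to 1.76), with the levels given above. Scx was higher by 1.78 (1.21 to 2.44), Tnmd by 1.48 (1.20 to 1.78), at 366 and 131 CPM, and Kera by 1.48 (1.23 to 1.75), at 436 and 155 CPM. In all, 256 of 7616 genes were higher (3.36%) and 422 lower (5.54%), so that 37.8% of the genes past 2-fold were higher, or 47.9% with scaling by trimmed mean of M-values (TMM). Of the 20 tendon matrix genes 5 were higher and 0 lower, with a median of 0.10 against -0.09 for all genes. Cilp (-0.53) and Comp (-0.11) were within 2-fold. Among Angptl7-led cells alone the ratios of Fmod (1.24), Thbs4 (1.61), Scx (1.80), Tnmd (1.62) and Kera (1.43) were of like size. In other fibroblast-type cells of the same pair the ratios were 3.18 for Fmod, 1.39 for Thbs4, 0.48 for Kera, 0.39 for Tnmd and -0.95 for Scx, so Fmod and Thbs4 were higher there as well.

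Of 6 wound-type genes 4 were higher in healthy Notch3-/- members, namely Acta2 (smooth muscle actin), Tagln, Postn and Cthrc1, with 51.9% of the 27 Tagln UMIs in 1 cell. Acta2 was at 140 and 43.2 CPM in Notch3-/- and wild-type members. Lower were Dkk2, a Wnt inhibitor, at 42.2 and 187 CPM (-2.14, interval -2.60 to -1.72), Nov, a matricellular protein, at 14.3 and 71.0 CPM, and Tmem245, of whose wild-type UMIs 67.8% came from 1 cell. Transcripts of other origin moved with this pair. The myeloid gene Lyz2 was at 52.2 CPM in Notch3-/- members and 5.14 CPM in wild-type members, with its 73 Notch3-/- UMIs spread over 64 cells, and Cd74 was at 37.9 and 7.20 CPM. All 3 of the 12 myeloid markers with enough UMIs were higher, and the 12 summed to 163 CPM in Notch3-/- and 20.6 CPM in wild-type members. The 16 dissociation stress genes summed to 29490 CPM in Notch3-/- members and 18130 CPM in wild-type members. Their part in the tendon gene ratios was not tested.

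In arthritic joints, the tendon genes split between Notch3-/- and wild-type members. Comp was higher in Notch3-/- members by 1.14 (1.01 to 1.27), at 6015 CPM against 2724 CPM in wild-type members, and Cilp by 1.29 (1.07 to 1.51), at 2220 against 908 CPM. Thbs4 was lower by -1.20 (-1.52 to -0.89) and Kera by -2.02 (-3.01 to -1.17), while Fmod (0.13, -0.15 to 0.41) and Scx (0.04, -1.06 to 1.24) had intervals that include 0. Of 3392 genes, 199 were higher (5.87%) and 269 lower (7.93%), and of the 20 tendon matrix genes 7 were higher and 5 lower. A single cell held 55.4% of the wild-type Thbs4 UMIs, and among Angptl7-led cells alone Thbs4 had a ratio of -0.10. For Kera 1 cell held 43.9% of the wild-type UMIs, and the Angptl7-led ratio was -0.91. Clu was higher by 2.08 (1.95 to 2.21), Ibsp by 3.85 (3.17 to 4.71), at 1005 CPM in 13 Notch3-/- cells against 67.9 CPM in 2 wild-type cells, and Myoc (myocilin) by 3.19 (2.41 to 4.23). Among Angptl7-led cells alone Clu had a ratio of 1.23, Comp of 0.94 and Cilp of 1.25, and Ibsp was at 8.16 CPM in Notch3-/- and 0 CPM in wild-type cells, too few UMIs for a ratio. Chad, a rule gene, was at 3801 CPM in Notch3-/- and 543 CPM in wild-type members.

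Several collagen and inflammatory genes were lower in arthritic Notch3-/- members. Of 8 fibrillar collagens 0 were higher and 4 lower, with a median of -1.03: Col1a1 was at 2611 and 5770 CPM in Notch3-/- and wild-type members (-1.14, -1.27 to -1.02), and Col3a1 at 3005 and 9949 CPM (-1.73, -1.83 to -1.62). The other fibroblast-type cells had -1.14 and -1.04 for these genes in the same pair. Among Angptl7-led cells alone Col1a1 had -0.76, within 2-fold, and Col3a1 -1.46. Of 13 inflammatory genes 1 was higher and 8 lower, with a median of -2.19. The inflammatory list summed to 2376 CPM in Notch3-/- and 5808 CPM in wild-type members. In isotype members, also arthritic and with Notch3 not targeted, it summed to 1935 CPM, so the high value was that of the wild-type library. The interferon list summed to 145, 1192 and 345 CPM in the same order. Mmp3 (stromelysin, which cuts matrix proteins) was at 30.7 CPM in 6 Notch3-/- cells and 3636 CPM in 17 wild-type cells, a log2 ratio of -6.82 (-7.89 to -6.04), with -3.98 in other cells. Saa3 (an acute-phase serum amyloid) had 0 UMIs in Notch3-/- members and 208 in wild-type members, at least 105-fold lower taking 3 UMIs over the group as the floor of a count of 0, though 52.4% of the 208 came from 1 cell. Timp1 was at 187 and 1324 CPM (-2.81, -3.23 to -2.44) and the interferon-induced gene Bst2 at 19.5 and 428 CPM (-4.36, -5.80 to -3.36). Msmp and Cxcl3 also ranked among the lowest ratios, but 96.2% of 812 Msmp UMIs and all 78 Cxcl3 UMIs of wild-type members lay in a single cell each. The wild-type side held 37 cells.

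Under anti-Notch3, members had lower levels of most fibrillar and fibril-associated collagens than under isotype. All 9 fibrillar collagens with enough UMIs were lower, with a median of -2.31 against -0.11 for all genes, and of 11 fibril-associated and other collagens 0 were higher and 10 lower, with a median of -1.96. The other fibroblast-type cells moved the same way. Fibrillar collagens summed to 15860 CPM in anti-Notch3 and 52010 CPM in isotype members, and to 15180 and 34800 CPM in other cells. The fibril-associated and other collagens summed to 1648 and 6321 CPM in members and to 2475 and 4485 CPM in other cells. In this pair 380 of 5350 genes were higher (7.10%) and 863 lower (16.1%). Col1a1 was at 2952 CPM in anti-Notch3 and 16430 CPM in isotype members (-2.47, -2.62 to -2.33), Col1a2 at 4525 and 16730 CPM, and Col3a1 at 7328 and 15290 CPM. Of 8 cartilage genes 7 were lower and of 8 wound-type genes 7 were lower, among them Acan at 22.4 and 291 CPM, Tnc at 14.9 and 439 CPM (-4.56, -7.93 to -3.02) and Postn, with 1 UMI in anti-Notch3 and 753 in isotype members (-6.10, -11.99 to -4.20). The collagenase Mmp13 had 0 UMIs against 265, at least 12.1-fold lower, and C1qtnf3 0 against 273, at least 12.4-fold lower. In other fibroblast-type cells the log2 ratios were -3.91 for Tnc, -0.51 for Postn, -1.26 for Mmp13 and -0.99 for C1qtnf3.

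Other matrix genes were higher under anti-Notch3. Timp3, an inhibitor of metalloproteinases, was at 1521 CPM in anti-Notch3 and 129 CPM in isotype members (3.55, 3.23 to 3.89), and Tnxb (tenascin X) at 455 and 24.4 CPM (4.20, 3.52 to 4.96). Cilp was at 2214 and 549 CPM (2.01, 1.80 to 2.22), Dcn at 37350 and 14570 CPM (1.36, 1.31 to 1.41) and Igfbp6 at 7865 and 2990 CPM (1.40, 1.29 to 1.50). Myoc (4.82) and Sfrp4 (4.36) headed the ranking, but rested on 7 and 5 of the 23 anti-Notch3 cells, with 55.3% and 50.8% of the UMIs in 1 cell. Thbs4, at 1409 and 1311 CPM, had a ratio of 0.11 (-0.12 to 0.33), and Fmod one of -0.86 (-1.05 to -0.68). In other fibroblast-type cells Thbs4 and Fmod had -2.45 and -4.73, and Timp3 and Tnxb had 0.96 and 1.48. The isotype members included the 29 Cilp2-led cells. Among Angptl7-led cells alone, 20 under anti-Notch3 and 72 under isotype, the ratios were -2.25 for Col1a1, -3.81 for Tnc, -5.81 for Postn, 4.02 for Timp3 and -0.55 for Fmod.

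**Figure D5:**
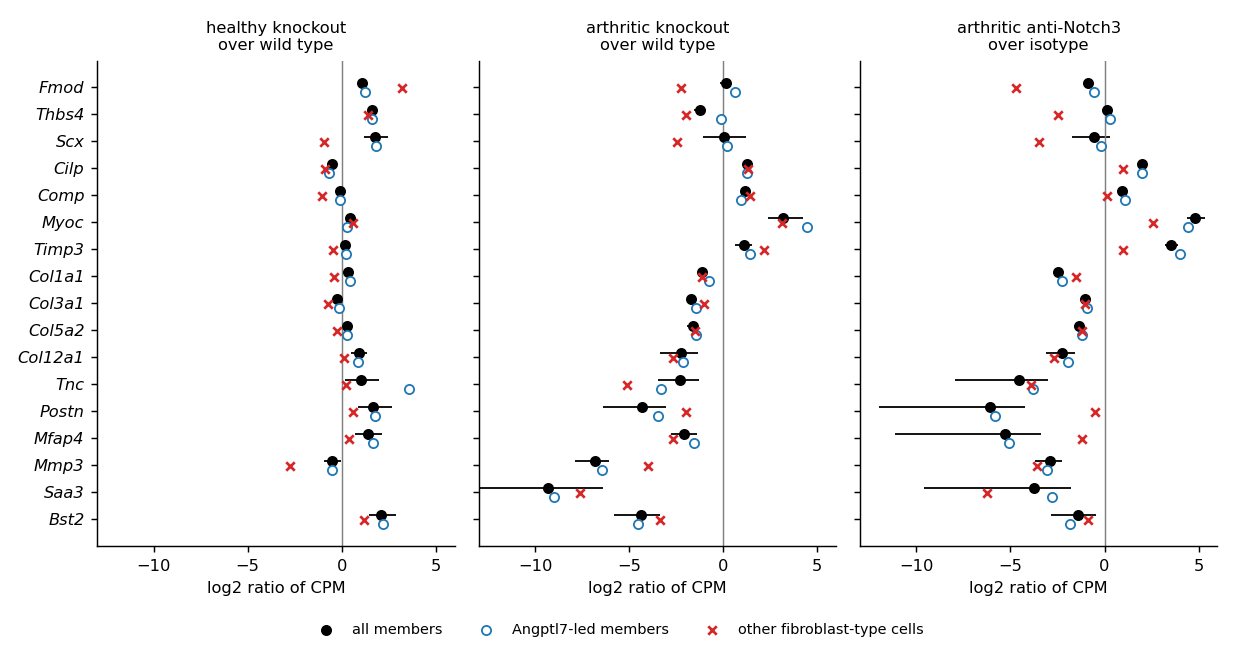
Log2 ratios of CPM levels within the 3 pairs of libraries that differ in Notch3: all members (black, with exact 95% counting intervals; a line that reaches the left edge runs on), Angptl7-led members alone (blue circles) and other fibroblast-type cells (red crosses); a gene with under 20 UMIs in the pair has no point. Fmod, Thbs4 and Scx lie right of 0 among members of the healthy pair, and collagens lie left of 0 in both arthritic pairs.

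The arthritic and healthy libraries of a genotype were set side by side last. These comparisons use the same libraries as the genotype pairs and are not independent of them. In wild-type mice, some tendon matrix genes of the members were lower in arthritis and some collagens higher. Fmod was at 713 CPM in arthritic and 1552 CPM in healthy members (-1.12, -1.36 to -0.89), Comp at 2724 and 6374 CPM (-1.23, -1.35 to -1.11), Cilp at 908 and 2291 CPM (-1.33, -1.54 to -1.13), and Prelp at 1167 and 2578 CPM (-1.14, -1.33 to -0.96). Thbs4, at 895 and 462 CPM, was higher in arthritic members but within 2-fold. Isotype members, also arthritic and with Notch3 not targeted, had Fmod at 3515 CPM, above the healthy wild-type level. Their Comp (3306 CPM), Cilp (549 CPM) and Prelp (1234 CPM) were below the levels of healthy wild type. Of 20 tendon matrix genes 3 were higher and 9 lower, with a median of -0.88, where 418 of 5695 genes were higher (7.34%) and 653 lower (11.5%). Of 8 fibrillar collagens 3 were higher and 0 lower (median 0.66), of 12 fibril-associated and other collagens 4 higher and 0 lower (0.53), and of 15 elastic fibre genes 5 higher and 1 lower (0.62). Mmp3 was at 3636 and 83.3 CPM (5.44, 5.12 to 5.79) and Timp1 at 1324 and 179 CPM (2.88, 2.62 to 3.16). Of 15 inflammatory genes 9 were higher and 3 lower. The inflammatory list summed to 5808 CPM in arthritic and 2329 CPM in healthy wild-type members, but to 1935 CPM in isotype members. Interferon-induced Bst2 was at 428 and 20.6 CPM (4.35, 3.68 to 5.15). Of 5 interferon response genes 4 were higher and 1 lower. The rise was not particular to members. Other fibroblast-type cells of this pair had log2 ratios of 1.82 for Mmp3 and 4.02 for Bst2. The interferon list summed to 1192 and 115 CPM in arthritic and healthy members, and to 1966 and 218 CPM in other cells. In isotype members it summed to 345 CPM.

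In Notch3-/- mice, the arthritic members were also lower in some tendon genes, and were higher in genes of mineralising tissue. Fmod was at 779 CPM in arthritic and 3287 CPM in healthy members (-2.07, -2.26 to -1.90), Thbs4 at 388 and 1410 CPM (-1.86, -2.12 to -1.61), Kera at 41.9 and 436 CPM (-3.33, -4.22 to -2.65) and Tnmd at 109 and 366 CPM (-1.73, -2.26 to -1.28). Comp, at 6015 and 5900 CPM, had an interval that includes 0 (-0.04 to 0.10). In this pair 300 of 6522 genes were higher (4.60%) and 405 lower (6.21%), and of 20 tendon matrix genes 0 were higher and 5 lower. Of 7 bone and mineralisation genes 5 were higher and 0 lower: Spp1 at 4404 and 976 CPM (2.17, 2.07 to 2.28), with 53.2% of the arthritic UMIs in 1 cell, Ibsp at 1005 and 144 CPM (2.80, 2.55 to 3.05), and Mgp, Alpl and Bglap. Ibsp was read in 13 of 70 arthritic and 20 of 263 healthy cells, and among Angptl7-led cells alone its ratio was -0.88. Mmp3 was at 30.7 and 58.6 CPM in arthritic and healthy Notch3-/- members (-0.88, -1.99 to -0.02), and Timp1 at 187 and 237 CPM (-0.33, -0.74 to 0.04).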

How the data were processed

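Each of the 6 libraries came with a matrix of UMI counts for 31017 genes, deposited by the authors without normalization. Per the submitters' processing notes, Cell Ranger 3.0.2 and build mm10 were used. Cells were taken by the stated rule, and the members and gene lists were chosen with earlier results of these data known. UMIs were summed over the members of a library and given as CPM with exact Poisson intervals; shares have exact Clopper-Pearson intervals, ratios of shares log-method intervals and ratios of levels exact conditional intervals. Log2 ratios add 0.5 UMI to each count. A gene entered a pair with at least 20 UMIs in it. Genes were named by rank of the ratio among those with at least 50 UMIs in a pair, up to 10 each way, and from 32 lists of 361 genes. Library totals ran from 11636998 to 24535233 UMIs and member totals from 134137 to 1398025, so the anti-Notch3 members are the least precise. Scrublet (scanpy 1.11.5) marked 188 cells, 3 of them members, as doublets and these were kept. Of 179 barcodes shared between libraries, 0 were shared among members. With 1 library per group no test was made. Tools were numpy 2.4.6, scipy 1.17.1, pandas 2.3.3, R 4.3.3 and edgeR 4.0.16 for TMM scaling of the counts.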

Additional observations from a re-analysis of the deposited data

Results flagged for a closer look

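Among the genes named by rank or by the rule, the log2 ratio of Notch3-/- over wild-type members pointed opposite ways in arthritic and healthy joints, past 2-fold in both with intervals that leave out 0, in 13 genes. The ranks came from all 5 pairs, among them the 2 arthritis pairs, which use the same libraries. Such a choice favours genes with opposite ratios, and no share over all genes was computed, so the number is a description only. Each group is 1 library, so the difference between the 2 ratios was not tested, and no group was large enough to look for a stray sample. Lower in arthritic and higher in healthy Notch3-/- members were Bst2 (-4.36 arthritic, 2.10 healthy), Isg15 (-6.22 and 3.87), Postn (-4.33 and 1.67), Mfap4 (-2.06 and 1.39), Thbs4 (-1.20 and 1.61), Kera (-2.02 and 1.48), Mdk (-1.65 and 1.61), Fosl2 (-1.36 and 2.52) and Chil1 (-8.31 and 5.36). Among Angptl7-led cells the arthritic ratio was -0.10 for Thbs4 and -0.91 for Kera, within 2-fold, and 55.4% and 43.9% of their arthritic wild-type UMIs lay in 1 cell each. Isg15 and Chil1 had 0 UMIs on 1 side of a pair or more, so the size of their ratios depends on the added 0.5 UMI. Of the 104 Chil1 UMIs of arthritic wild-type members 69.2% lay in 1 cell. Over all members, 4 Cytl1-led cells held 92 Chil1 UMIs. Higher in arthritic and lower in healthy Notch3-/- members were Cdo1 (1.45 and -1.72), Galnt15 (1.13 and -1.31), Mettl7a1 (1.21 and -1.03) and AC160336.1 (1.66 and -2.02).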

How the results depend on the processing

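No paired analysis was possible because each group is 1 library, and for the same reason no library could be left out of a group. Counts of genes past 2-fold depended on the minimum of UMIs. With no minimum, the genes higher and lower numbered 1988 and 2047 in the healthy genotype pair, 1503 and 2349 in the arthritic genotype pair, 3292 and 1724 for the antibody, 2213 and 1758 for arthritis in wild type and 2201 and 1170 for arthritis in knockout. With at least 50 UMIs they were 114 and 148, 64 and 85, 127 and 392, 155 and 270, and 82 and 154 in the same order. Under the other settings these counts stayed within 1.5 times. The ratio of shares was 1.66 in the healthy genotype pair with Angptl7 left out of the sum, and 0.656 for the antibody in thinned cells. These 2 lay beyond the interval of their pair's main ratio, and 53 of 55 values of such ratios stayed within it. Of 768 ratios of named genes within pairs 4 turned their sign and 60 more moved beyond their interval, as did 9 of 160 ratios of members over other cells beyond their range over libraries, 18 of 66 shares per library and 1 of 516 list medians. Cxcl13 in the healthy genotype pair was 0.60 and Pi16 for arthritis in knockout was -2.99 in members with at least 6 rule UMIs. Among Angptl7-led members, an alternative chosen after seeing the data, Cytl1 was -1.05 for the antibody and Ibsp was -0.88 for arthritis in knockout. The cause was not tested. The 23 anti-Notch3 and 37 arthritic wild-type members limit their pairs most.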
